A study of Mus musculus with 27 samples.

Results

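Hepatocytes of NZO/HlLtJ mice, an inbred strain with polygenic obesity used as a model of type 2 diabetes, were compared with hepatocytes of NOD/ShiLtJ mice, the inbred model of autoimmune (type 1) diabetes. The comparison used 6 of the 27 RNA sequencing libraries of the series, 3 of each strain (NZO and NOD below), chosen by the strain named in the labels. All came from hepatocytes of the liver of female mice aged 12 weeks, with no treatment or engineered allele named for either strain. The other 21 libraries, 3 each of 129S1/SvImJ, A/J, C57BL/6J, CAST/EiJ, DBA/2J, PWK/PhJ and WSB/EiJ, entered the same model and gave the range of strain means against which the pair is described. The study set out to relate genetic differences among inbred strains to chromatin marks and gene expression. The labels call the libraries biological replicates without saying how many animals stand behind each, so the p-values measure the spread between these libraries. Body weight, blood glucose and diabetes status of the mice were not analysed here.

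The strains reach high blood glucose by different routes. NZO mice overeat and become obese and insulin resistant, with fat stored in the liver, and overt diabetes is known mainly from their males. In NOD mice autoimmune attack on the pancreatic beta cells, most often in females, removes insulin, and the main genetic risk maps to the class II genes of the major histocompatibility complex (MHC), whose products present antigen to T cells. In the hepatocyte, insulin and fatty acid supply act on lipid storage, glucose output, lipoprotein secretion and bile acid synthesis, and the same cell makes most of the complement and acute phase proteins of the blood.

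The libraries held 26853322 to 32241591 counts in NZO and 26024663 to 28582773 in NOD, and 1 count corresponded to 0.0253 to 0.0348 CPM, the count relative to the adjusted library size. Log2 CPM values correlated at r = 0.980 to 0.987 across genes between the NZO libraries, at 0.979 to 0.981 between the NOD libraries and at 0.944 to 0.954 between strains. Of 14482 genes tested, 1510 (10.4%) were called at an adjusted p under 0.05. NZO was higher in 684 of them (4.72%) and lower in 826 (5.7%). A difference of at least 2-fold was found in 411 of the higher and 536 of the lower genes, and of at least 8-fold in 131 and 184. The median log2 difference over all genes tested was -0.003, a value that the scaling of the libraries sets near 0. The 3 NZO libraries lay above the 3 NOD libraries for 16.6% of the genes tested and below them for 18%. The number of lower genes fell to 526, 532 and 535 when NZO replicate 1, NZO replicate 2 or NOD replicate 2 was left out, and a fit on the 6 libraries alone called 2512 genes. Counts were not whole numbers in each of the 6 libraries for 27.8% of the called genes and 22.6% of the genes tested, which marks genes that share reads with others. Among the called genes described below this held for Alas2, Lpl, Apoa4, Slco1a1, Cfhr2, Ifit3b, Tgtp2, Sult2a1, Sult3a1 and mt-Nd2, and for others named beside their values. The plot of mean levels shows that the called genes spread over the whole range of expression.

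**Figure D1:**
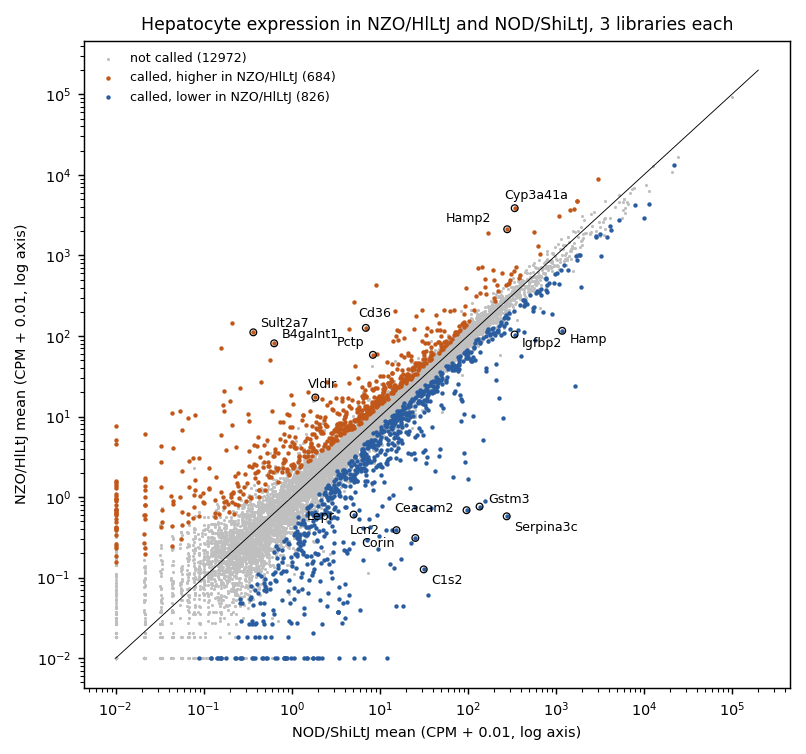
Mean CPM of each gene tested in NOD/ShiLtJ (x axis) and NZO/HlLtJ (y axis), both on log axes after adding 0.01, with 3 libraries per strain. Orange marks the 684 genes called higher and blue the 826 called lower in NZO/HlLtJ, the line marks equal means, and circles mark genes named in the text, such as Cd36 and Sult2a7 far above the line and Serpina3c and C1s2 far below it.

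Levels of the highly expressed genes leaned toward NOD. Of 116 genes with a mean of at least 1000 CPM, 8.62% were called higher and 16.4% lower in NZO, with a median log2 difference of -0.34. For the 1026 genes of at least 100 CPM the shares were 5.46% and 9.65%, with a median of -0.05. Both strains carried the hepatocyte profile, with albumin (Alb) taking 10.3% to 11.7% of the counts. The 13 hepatocyte markers summed to 121300 to 125500 CPM in NZO and 140800 to 147200 in NOD. The 16 markers of liver endothelial cells summed to 97.6 to 166 CPM in NZO and 205 to 372 in NOD, none of the 16 had a positive log2 difference, the median was -1.08, and 1 (Dnase1l3) was called lower. That call was lost when any library but NOD replicate 1 was left out, with RLE size factors, with the replicate block on all libraries and with the covariates described below (adjusted p up to 0.221), while the fit on the 6 libraries called 13 of the 16 lower. The endothelial covariate is a mean that includes Dnase1l3 itself, so the fit with the covariates cannot test this call. Kupffer cell markers (16) summed to 182 to 224 against 255 to 276 CPM with none called by edgeR or DESeq2 in all libraries, 4 at an unadjusted p under 0.05 and 4 called lower in the fit on the 6 libraries, and markers of stellate cells and fibroblasts to 33.6 to 57.6 against 55.8 to 90.0 CPM with 3 of 13 called lower (1 with those covariates). B and plasma cell markers summed to 1.22 to 2.99 CPM in NZO and 15.1 to 31.7 in NOD. Ighm (immunoglobulin heavy chain mu), which made up nearly all of the sum in NOD and the larger share of it in NZO, was at 1.22, 1.9 and 0.77 CPM in NZO and at 14, 29.9 and 23 in NOD. Erythroid markers summed to 23.4 to 27.7 CPM in NZO and 17.6 to 20.5 in NOD. Alas2, the first enzyme of erythroid heme synthesis, made up most of the sum in NZO. It was at 24.26, 20.02 and 24.35 against 7.56, 7.66 and 11.2 CPM and was the 1 of 6 called higher. The other 5 had negative log2 differences with no overlap between the strains, 1 of them called lower (Hba-a2), and the median of the list was -2.30. The number of erythroid markers called lower ran from 0 to 3 across the alternatives. Adipocyte markers summed to 11.9 to 15.1 against 9.65 to 10.03 CPM (none of 3 called, 2 higher and 1 lower at an unadjusted p under 0.05) and cholangiocyte markers to 12.6 to 17.7 against 15.6 to 18.8 CPM (2 of 3 called lower). Without NZO replicate 3 neither cholangiocyte call was kept (Sox9, adjusted p = 0.0783, and Spp1, adjusted p = 0.0512). Of the fits with a library left out, Sox9 kept its call only without NZO replicate 1. Markers of T and NK cells summed to at most 0.561 and 1.77 CPM, and Cd3d, Cd3g, Cd8a, Trac, S100a8 and Adipoq held 3 counts or fewer in each of the 6 libraries. In bulk RNA, fewer cells of a type and less RNA per cell cannot be told apart. With the mean levels of the Kupffer and endothelial lists as covariates, 1192 genes were called, 558 higher and 634 lower, and the count with these covariates is given beside a pathway group where it differed by more than 1.5 times. The mean log2 CPM of the endothelial list itself separated the strains, at 2.31 to 3.07 in NZO and 3.39 to 4.25 in NOD. The covariate fit therefore cannot fully tell a strain difference from a difference in these markers.

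**Figure D2:**
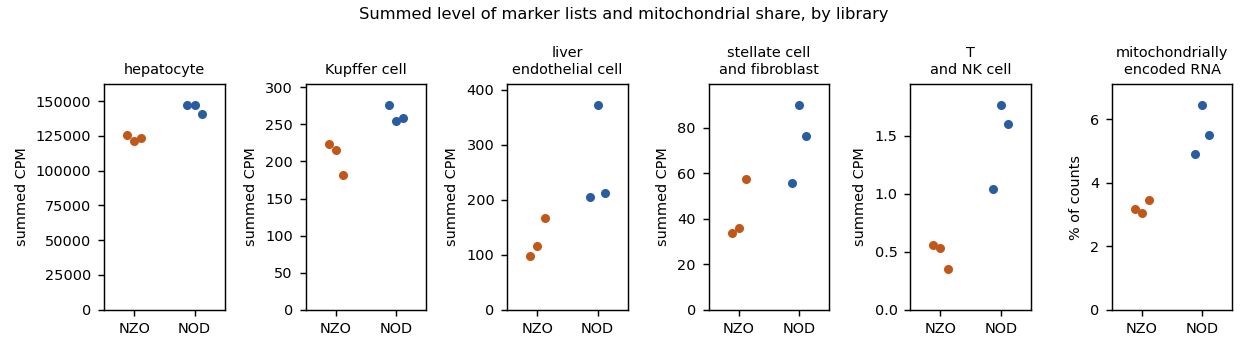
Summed CPM of the hepatocyte, Kupffer cell, liver endothelial cell, stellate cell and fibroblast, and T and NK cell marker lists, and the share of counts from mitochondrially encoded RNA in percent, for each library (points, 3 per strain, y axes from 0). In each panel drawn the 3 NZO/HlLtJ libraries lie below the 3 NOD/ShiLtJ libraries, apart from the stellate cell and fibroblast panel, where the highest NZO/HlLtJ library (57.6) is above the lowest NOD/ShiLtJ library (55.8). Erythroid and adipocyte markers, which summed higher in NZO/HlLtJ although 5 of 6 and 1 of 3 of their genes were lower, are not drawn.

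Genes were grouped by pathway and cell function, and the share called in each pathway group can be read against 4.72% higher and 5.7% lower over all genes tested. Lipoprotein and bile acid genes had the highest shares called lower, while no gene of de novo lipogenesis (22 tested), cholesterol synthesis and uptake (24), glucose production and use (24) or the immediate early response (16) was called in either direction. At an unadjusted p under 0.05 by edgeR these groups held 2, 2, 4 and 4 genes, and DESeq2 called 1 cholesterol and 1 glucose gene lower and none of the others. In the fit on the 6 libraries alone, 4 lipogenesis genes (2 in each direction), 3 cholesterol genes (lower), 4 glucose genes (1 higher, 3 lower) and 2 immediate early genes (1 in each direction) were called. The replicate block on the 6 libraries gave 4 cholesterol and 5 glucose genes lower and 5 immediate early genes higher.

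**Figure D3:**
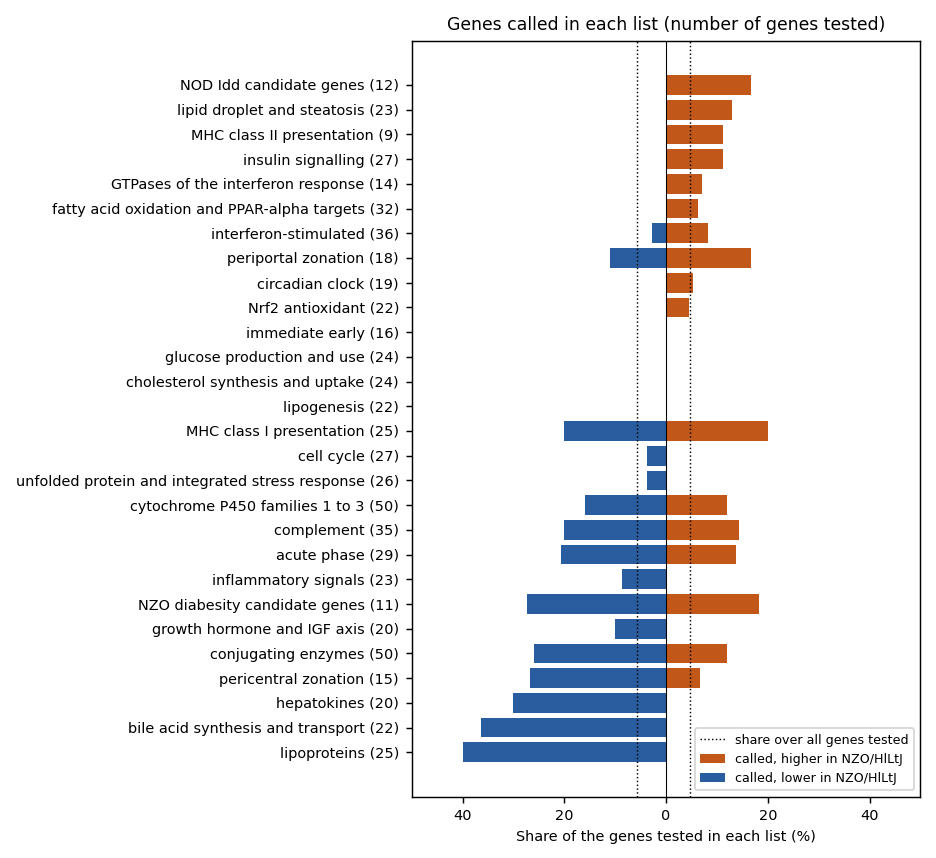
Share of the genes tested in each group (number tested in brackets) that were called higher (orange, to the right) or lower (blue, to the left) in NZO/HlLtJ, in percent. Dotted lines mark the shares over all genes tested, and lipoproteins (10 of 25) and bile acid genes (8 of 22) show the longest bars to the left.

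Cd36, Vldlr and Fitm1 of the lipid droplet and steatosis group were higher in NZO. Cd36 (ENSMUSG00000002944, chr5:17781690-17888801), the membrane transporter that takes long-chain fatty acids into the cell, was at 89.8, 123 and 166 CPM in the NZO libraries and at 6.46, 7.90 and 6.48 in the NOD libraries. The lowest NZO library was well above the highest NOD library, and the NOD mean was below the other 7 strains, whose means ran from 81.3 to 235 CPM. The log2 difference of 4.18 ± 0.36 (SE) passed the test with an adjusted p of 5.56e-09. Vldlr, the receptor for triglyceride-rich very low density lipoprotein, was at 9.79, 20.4 and 21.6 CPM in NZO and at 2.27, 1.70 and 1.57 in NOD, a log2 difference of 3.22 ± 0.46 (adjusted p = 1.92e-05), with both means within the range of the other strains (1.22 to 21.6). Fitm1, whose product partitions triglyceride into lipid droplets, was at 6.04, 5.82 and 4.88 against 2.27, 1.39 and 2.02 CPM (log2 difference 1.56 ± 0.37, adjusted p = 0.00626), and it was not called with the Kupffer and endothelial covariates. These were the 3 genes called higher among 23 of the lipid droplet and steatosis group, and none was called lower (none by DESeq2, 2 at an unadjusted p under 0.05). The droplet coat gene Plin2 overlapped between the strains, at 224, 223 and 160 CPM in NZO and 184, 199 and 242 in NOD. Pparg, the nuclear receptor known to drive Cd36 in fatty liver, was at 2.96, 2.48 and 2.44 against 1.49, 0.935 and 1.67 CPM and was not called (adjusted p = 0.284), but passed in the fit on the 6 libraries with or without the replicate block (lowest adjusted p = 0.0355). Cidec, which fuses droplets, stood under 1 CPM in each of the 6 libraries.

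A start of Cd36 is shown because this gene had the lowest adjusted p in its group. It is the start that RefSeq lists, which lies inside the annotated gene and not at its 5′ end (chr5:17888801), and other starts were not searched. The sequence is the RefSeq promoter window of the C57BL/6J reference (GRCm38.p6, 250 bases before to 50 after the start, 5′ to 3′), not an NZO or NOD allele, and capitals mark a match to the direct repeat 1 core AGGNCANAG, the element read by PPAR and other nuclear receptors, searched on both strands.
Cd36 (chr5:17835847-17836146, minus strand): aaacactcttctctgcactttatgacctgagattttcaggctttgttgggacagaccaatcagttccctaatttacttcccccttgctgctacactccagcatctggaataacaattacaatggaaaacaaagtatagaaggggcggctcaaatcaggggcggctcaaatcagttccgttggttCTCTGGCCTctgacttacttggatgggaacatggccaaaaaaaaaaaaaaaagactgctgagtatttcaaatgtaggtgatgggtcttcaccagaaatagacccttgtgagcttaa
The match lies on the opposite strand, 66 bases before the start. Such a match was found in the windows of 7 of the 21 lipid droplet genes with a window, Fitm1 among them, and in 1 of 23 genes of the fatty acid oxidation group, against 10.2% of 27025 genes. The search in the lipid droplet group was added after its values were seen.

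Fatty acid oxidation and the targets of PPAR-alpha, the nuclear receptor of fasting, showed few calls. Of 32 genes, 2 were called higher and none lower (2 of 32 is 6.25%, against 4.72% over all genes), and 26 of the 32 had a positive log2 difference. The median was 0.21, or 0.05 with the Kupffer and endothelial covariates. The fit on the 6 libraries called 6 higher and 2 lower, and the fit without a filter on low counts 4 higher. Vnn1, a pantetheinase known as a PPAR-alpha target, was at 34.2, 67.8 and 34.3 CPM in NZO and 10.9, 16.2 and 14.3 in NOD (log2 difference 1.72 ± 0.38, adjusted p = 0.00311). Cyp4a12a, a fatty acid omega-hydroxylase, was at 3.29, 2.10 and 29.6 CPM against 0.357, 0.416 and 0.976. A single NZO library set its mean, and without NZO replicate 3 the log2 difference of 4.31 became 2.21 and was not called (adjusted p = 0.158), which left 1 gene called in the group. The receptor gene Ppara itself and the carnitine transferase Cpt1a, which admits fatty acids to the mitochondrion, did not pass the test (adjusted p = 0.523 and 0.816).

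Phosphatidylcholine transfer and leptin receptor genes stood apart among the candidate genes proposed for obesity and diabetes in NZO. Of 11 such genes tested, 2 were called higher and 3 lower. Pctp (ENSMUSG00000020553, chr11:89982665-90002894), which encodes the phosphatidylcholine transfer protein, was at 53.1, 73.4 and 48.5 CPM in NZO and at 7.14, 10.4 and 7.53 in NOD (log2 difference 2.80 ± 0.29, adjusted p = 1.45e-07). As with Cd36, it was the NOD mean that lay below the other 7 strains (27.2 to 97.9 CPM). Lepr (ENSMUSG00000057722, chr4:101717404-101815352), the receptor of the fat hormone leptin, gave 0.510, 0.607 and 0.674 CPM in NZO and 6.23, 4.71 and 4.18 in NOD (log2 difference -3.08 ± 0.41, adjusted p = 8.48e-06). Here the NZO mean lay below the other strains, whose lowest was 2 and highest 25.1 CPM. Igfbp2, a secreted binding protein of the insulin-like growth factors, was at 124, 113 and 76.7 CPM in NZO and at 315, 472 and 235 in NOD, a log2 difference of -1.71 ± 0.25 (adjusted p = 3.01e-05). Both strains were below the other 7, whose means ran from 560 to 842 CPM. The zinc finger gene Zfp69, also called lower, was scarce, at 0.408, 0.430 and 0.160 against 1.01, 1.04 and 1.29 CPM. The number called higher fell to 1 by DESeq2, with a mean of at least 10 counts required, or with the covariates. Abcg1, a cholesterol exporter, and Ifi202b, an interferon-inducible gene, were near 1 CPM in both strains and not called (adjusted p = 0.864 and 0.942).

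**Figure D4:**
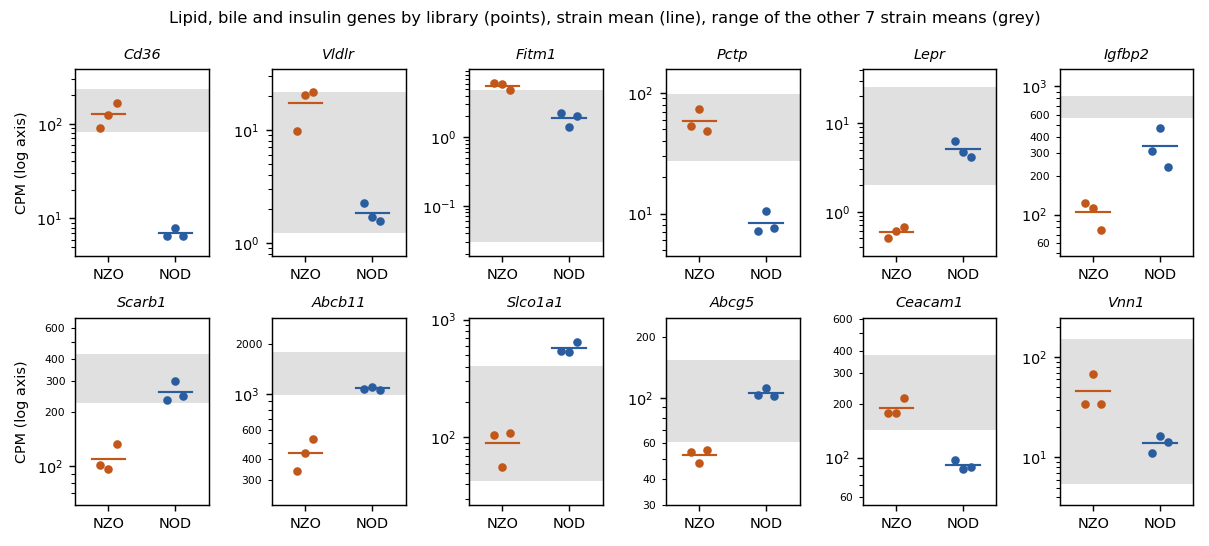
CPM on log axes of 12 genes of lipid, bile acid and insulin biology for each library (points), with the strain mean (line) and the range of the means of the other 7 strains (grey, with means below 0.03 drawn at 0.03). NOD/ShiLtJ lies below the grey band for Cd36, Pctp and Ceacam1, NZO/HlLtJ lies below it for Lepr, Scarb1, Abcb11 and Abcg5, and both lie below it for Igfbp2.

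Of 25 lipoprotein genes tested, 10 were called lower and none higher (none by DESeq2 or at an unadjusted p under 0.05). The median log2 difference was -0.58, against -0.05 over genes of at least 100 CPM and -0.34 over genes of at least 1000 CPM. Scarb1 (ENSMUSG00000037936, chr5:125277087-125341094), the receptor through which the liver takes up cholesterol from high density lipoprotein, was at 101, 96.6 and 132 CPM in NZO and 234, 301 and 248 in NOD. No NZO library reached the lowest NOD library, and the NZO mean was below the other 7 strains (228 to 425 CPM), with a log2 difference of -1.25 ± 0.21 and an adjusted p of 0.000203. Apoa1, the main protein of high density lipoprotein, was at 5243, 3500 and 3792 CPM against 6166, 9665 and 7769, with an adjusted p of 0.0326, and its call was lost without NZO replicate 2 or 3, NOD replicate 2 or 3, or with the covariates (adjusted p up to 0.191 across the alternatives). Apoa4, carried by chylomicrons and high density lipoprotein, was at 179, 164 and 278 against 570, 662 and 425 CPM (log2 difference -1.42 ± 0.34, adjusted p = 0.00739), and lost its call without NZO replicate 2 or with the covariates (adjusted p up to 0.0713). The other genes called lower were Apoa5, Apoc2, Apoe, Apoh, Apom, Lipc and Lpl. The call of Lpl (lipoprotein lipase, adjusted p = 0.0437) was lost with the replicate block on all libraries and without NZO replicate 2 or 3 or NOD replicate 2 or 3 (adjusted p up to 0.172). The count of 10 fell to 4 without NZO replicate 2, without NOD replicate 2 or with the covariates, under which the group's median was -0.32.

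Of 22 genes of bile acid synthesis and transport tested, 8 were called lower and none higher (none by DESeq2, 1 at an unadjusted p under 0.05), and the median log2 difference was -0.60. At the canalicular membrane, Abcb11 (ENSMUSG00000027048, chr2:69238282-69342616), the bile salt export pump, was at 339, 440 and 532 CPM in NZO and 1077, 1109 and 1059 in NOD. The NOD libraries were close together, the highest NZO library was far below them, and the NZO mean was below the other strains (988 to 1804 CPM), with a log2 difference of -1.31 ± 0.21 and an adjusted p of 8.13e-05. Its counts were not whole numbers in any of the 6 libraries, so reads were shared with other features. Abcg5, a subunit of the sterol exporter, was at 54.0, 47.9 and 55.7 against 104, 112 and 102 CPM (log2 difference -1.01 ± 0.20, adjusted p = 0.00116). At the sinusoidal membrane, the uptake transporter Slco1a1 was at 105, 55.9 and 110 CPM in NZO and 545, 535 and 642 in NOD (log2 difference -2.67 ± 0.62, adjusted p = 0.00495), with the NOD mean above the other 7 strains (43.0 to 406). Cyp7a1, the rate-limiting enzyme of classic bile acid synthesis, overlapped between the strains, at 64.2, 57.4 and 140 against 249, 117 and 70.6 CPM (adjusted p = 0.564). Cyp27a1, the entry enzyme of the alternative pathway, was at 322, 276 and 423 against 548, 707 and 531 CPM (log2 difference -0.81 ± 0.22, adjusted p = 0.0154), and its call was lost without NZO replicate 1 or 2, NOD replicate 2 or with the covariates (adjusted p up to 0.139). Acox2, Slco1b2, Abcb4 and Cyp7b1 made up the rest of the 8. The call of Cyp7b1, an oxysterol hydroxylase (adjusted p = 0.0474), was lost in 10 of 16 alternatives (adjusted p up to 0.214): RLE size factors, the replicate block on all libraries, the covariates, the GC trend removed and each left-out library. The count was 4 without NZO replicate 1, without NZO replicate 2 or with the covariates, 5 without NOD replicate 2, and 13 in the fit on the 6 libraries. Cyp39a1, an oxysterol hydroxylase of bile acid synthesis that is not in this group, was at 0.663, 0.557 and 0.962 CPM in NZO and 30.7, 43.7 and 39.0 in NOD (log2 difference -5.71 ± 0.35, adjusted p = 1.14e-11), and the NZO mean was below the other strains (2.25 to 142 CPM).

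Insulin signalling showed 3 genes called higher and none lower among 27. Ceacam1, a membrane glycoprotein known to promote insulin clearance by the hepatocyte, was at 177, 178 and 215 CPM in NZO and 97.1, 86.7 and 88.7 in NOD (log2 difference 1.06 ± 0.18, adjusted p = 0.00014), and the NOD mean was below the other 7 (143 to 380). Its neighbour and near-copy Ceacam2, which lies near it on chromosome 7 (chr7:25516042-25539857), went the other way, at 0.816, 0.481 and 0.738 CPM in NZO and 93.3, 100 and 96.9 in NOD (log2 difference -7.16 ± 0.33, adjusted p = 5.44e-14). Neither gene had whole counts in any of the 6 libraries, so both shared reads with other features, which the table does not name. Grb10, an adaptor that binds the insulin receptor, was at 4.59, 4.63 and 4.52 against 2.79, 2.56 and 1.85 CPM (adjusted p = 0.0103), and Trib1, a pseudokinase of hepatic lipid regulation, at 21.2, 29.8 and 17.1 against 14.2, 8.77 and 4.95 (adjusted p = 0.0212). Without NOD replicate 3 neither of these passed (adjusted p = 0.0741 and 0.128), which left 1 gene called. Trib1 was not called without NZO replicate 2 (adjusted p = 0.124) or NOD replicate 2 (adjusted p = 0.0777) or with the covariates (adjusted p = 0.164) either. The insulin receptor gene Insr was at 101, 98.6 and 143 CPM against 117, 104 and 128, a log2 difference of -0.02 ± 0.18, and the substrate genes Irs1 and Irs2 did not pass (adjusted p = 0.173 and 0.742).

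Genes of glucose output were variable among libraries of 1 strain. Pck1, which encodes the gluconeogenic enzyme PEPCK, was at 298, 447 and 1176 CPM in NZO and 1057, 1610 and 2095 in NOD. The highest NZO library exceeded the lowest NOD library, and the log2 difference of -1.31 ± 0.54 did not pass the test (adjusted p = 0.132). Pck1 was called lower in 4 of 16 alternatives (lowest adjusted p = 0.000357): without NZO replicate 3, which gave a log2 difference of -2.09, without a filter on low counts, and with the replicate block on all or on the 6 libraries. G6pc, the last enzyme of glucose release, was at 232, 324 and 604 against 520, 525 and 884 CPM (adjusted p = 0.249), and was called lower with the replicate block on the 6 libraries (adjusted p = 0.00282). Feeding state at collection was not analysed here. Of the lipogenic genes, Fasn (fatty acid synthase) overlapped, at 386, 382 and 444 against 538, 442 and 350 CPM. Scd1, the desaturase that makes oleate, was at 3259, 2379 and 3564 CPM in NZO and 2014, 1806 and 2121 in NOD. The libraries of the strains did not overlap for Scd1, which was true of 34.6% of the genes tested in 1 direction or the other, and its log2 difference of 0.63 ± 0.51 was not called (adjusted p = 0.519), while the fit on the 6 libraries called it higher with or without the replicate block (lowest adjusted p = 0.00619).

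Growth hormone and IGF genes showed 2 calls in 20, both lower and both described above (Igfbp2 and Lepr), and 4 genes were called lower in the fit on the 6 libraries. Ghr, the growth hormone receptor, was at 378, 343 and 424 against 452, 401 and 450 CPM (adjusted p = 0.61), and Igf1, its main secreted product, was at 765, 673 and 694 against 630, 728 and 694 (adjusted p = 0.944). Hepatokines, the hormones secreted by hepatocytes, were called lower in 6 of 20 genes and higher in none (none by DESeq2 or at an unadjusted p under 0.05, and 2 with the replicate block on the 6 libraries). Among them Lect2, a secreted chemotactic factor, was at 104, 110 and 109 CPM in NZO and 193, 221 and 172 in NOD (log2 difference -0.86 ± 0.19, adjusted p = 0.00402). Enho, which encodes adropin, was at 30.4, 20.2 and 8.18 against 45.5, 54.9 and 51.6 CPM (adjusted p = 0.011), and was not called without NZO replicate 3 (adjusted p = 0.0616). Rbp4, the carrier of retinol, Agt, the angiotensin precursor, Hamp and Igfbp2 were the others. Fgf21, the fasting hormone of the liver, stood between 0.430 and 2.19 CPM across the 6 libraries and was not called (adjusted p = 0.18), but passed as lower in NZO in the fit on the 6 libraries (adjusted p = 0.0448).

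The hepcidin genes moved in opposite directions. Hamp (ENSMUSG00000050440, chr7:30942368-30944032) encodes hepcidin, the hormone that limits iron export to the blood. It was at 127, 127 and 93.4 CPM in NZO and 1133, 1435 and 986 in NOD, a log2 difference of -3.35 ± 0.40 (adjusted p = 1.46e-06). The NZO mean was below and the NOD mean above the other 7 strains, which ran from 164 to 1027 CPM. Hamp2 (ENSMUSG00000056978, chr7:30922372-30924681), a duplicate of the gene in the mouse, was at 1870, 2211 and 2265 CPM in NZO and 313, 315 and 215 in NOD, a log2 difference of 2.91 ± 0.39 (adjusted p = 9.54e-06), within the range of the other strains (148 to 4353). Counts of both were not whole in any of the 6 libraries, so each shared reads with some other feature, and whether these were the other hepcidin copy was not tested.

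Acute phase genes, which the liver raises in inflammation, were called in both directions. Of 29 tested, 4 were higher and 6 lower in NZO, with a median log2 difference of -0.32. Lcn2, an iron-chelating protein of innate defence, was at 0.306, 0.734 and 0.0962 CPM in NZO and 13.6, 17.5 and 15.4 in NOD. The strains did not come near each other, the NZO mean was below the other strains (0.7 to 228 CPM), and the log2 difference was -5.28 ± 0.90 (adjusted p = 0.000202), or -6.17 without NZO replicate 2. Il1r1, the receptor of interleukin 1, was at 5.63, 5.97 and 8.34 against 28.1, 28.6 and 30.9 CPM (log2 difference -2.14 ± 0.28, adjusted p = 5.73e-06), and Apcs, serum amyloid P, at 256, 260 and 161 against 520, 572 and 561 (log2 difference -1.29 ± 0.29, adjusted p = 0.00329). Serpina3m, a protease inhibitor of a multigene family, was at 412, 408 and 412 against 1826, 1775 and 2199 CPM (log2 difference -2.23 ± 0.21, adjusted p = 3.61e-08), and its counts were not whole in any of the 6 libraries. The classic marker Saa1 did not separate the strains, at 17, 19.8 and 11.8 against 36.5, 11.7 and 11.8 CPM. Among the genes called higher, the metallothionein gene Mt1, which binds zinc and copper, was at 125, 58.2 and 183 CPM against 11.7, 30.5 and 30.8 (log2 difference 2.33 ± 0.63, adjusted p = 0.0161), and was not called without NZO replicate 3 (adjusted p = 0.0767) or NOD replicate 1 (adjusted p = 0.0856). The number called higher was 2 without NZO replicate 1, NZO replicate 3 or NOD replicate 2, and 1 without NOD replicate 1. With the covariates the median of the group was -0.01.

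Complement genes were called in 12 of 35 cases, 5 higher and 7 lower in NZO. Hc (ENSMUSG00000026874, chr2:34983331-35061438), which encodes complement C5 and is known to carry an inactivating coding deletion in NOD, was at 674, 639 and 684 CPM in NZO and 182, 178 and 214 in NOD. The NOD mean was below the other 7 strains (328 to 1233 CPM), the lowest of which was DBA/2J, and the log2 difference was 1.80 ± 0.22 (adjusted p = 1.95e-06). C1s2 and C1rb, duplicate genes for the serine proteases of the first complement component, lie close together on chromosome 6 (chr6:124624625-124636085 and chr6:124570294-124581171). C1s2 was at 0.0510, 0.203 and 0.0962 CPM in NZO and 32.6, 29.9 and 32.3 in NOD, a log2 difference of -8.01 ± 0.28 (adjusted p = 4.25e-16). C1rb was at 0.153, 0.101 and 0.225 against 17.3, 18.9 and 15.6 CPM, a log2 difference of -6.76 ± 0.41 (adjusted p = 1.04e-11). The counts of both genes were not whole in any library of the pair, so each shared reads with some other feature that the table does not name. Without NZO replicate 2 the log2 difference of C1s2 was -8.70. Mbl1, a mannose-binding lectin that starts the lectin pathway, was at 102, 100 and 104 CPM in NZO and 203, 209 and 202 in NOD (log2 difference -1 ± 0.17, adjusted p = 0.000221). Cfhr2, related to the inhibitor factor H, was at 411, 421 and 475 against 202, 229 and 219 CPM (log2 difference 1.01 ± 0.18, adjusted p = 0.000354). The 7 genes called lower became 15 in the fit on the 6 libraries, 3 with the covariates and 3 or 4 when any 1 of the 6 libraries was left out.

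**Figure D5:**
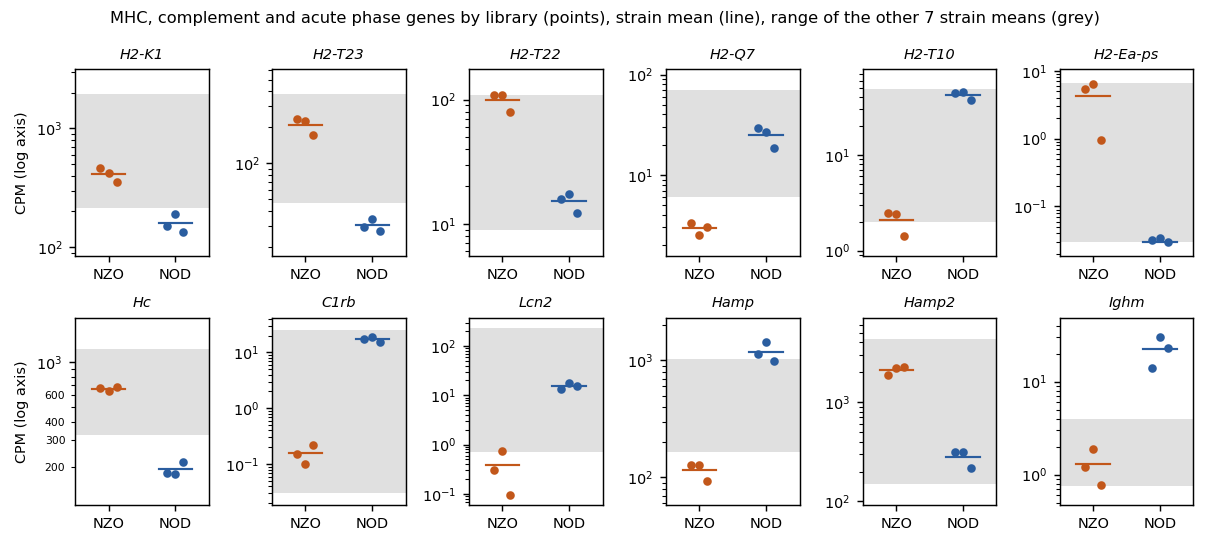
CPM on log axes of 12 MHC, complement, acute phase and immunoglobulin genes for each library (points), with the strain mean (line) and the range of the means of the other 7 strains (grey). Values below 0.03 are drawn at 0.03, which applies to a NOD/ShiLtJ library of H2-Ea-ps at 0. Hamp and Hamp2 point in opposite directions, as do H2-T22 and H2-T10.

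Class I genes of the MHC, which present peptides from inside the cell to CD8+ T cells, were called in 10 of 25 cases, 5 in each direction (40% against 10.4% over all genes). The strains carry different MHC haplotypes, class I genes are near-identical copies, and 9 of the 10 called genes had counts that were not whole in each of the 6 libraries, so these values depend on how reads were divided. H2-K1, a classical class I heavy chain (chr17:33996017-34000347), was at 461, 418 and 354 CPM in NZO and 150, 191 and 135 in NOD (log2 difference 1.37 ± 0.26, adjusted p = 0.000706). H2-T23, which encodes the nonclassical molecule Qa-1 (chr17:36029773-36032855), was at 235, 225 and 172 against 29.3, 34.4 and 26.8 CPM (log2 difference 2.80 ± 0.30, adjusted p = 3.25e-07), and its neighbour H2-T22 at 109, 109 and 79.5 against 15.7, 17.4 and 12.3 (log2 difference 2.71 ± 0.22, adjusted p = 1.97e-09). The NOD mean was below the other 7 strains for H2-K1 and H2-T23. In the other direction, H2-T10, a near-copy of H2-T22, was at 2.50, 2.40 and 1.41 CPM in NZO and 44.2, 45.1 and 37.4 in NOD (log2 difference -4.31 ± 0.28, adjusted p = 3.09e-11), and H2-Q7, a Qa-2 gene, at 3.29, 2.51 and 3.05 against 29.5, 27 and 18.7 (log2 difference -3.09 ± 0.42, adjusted p = 9.25e-06). B2m, the light chain shared by class I molecules, did not pass, at 911, 897 and 783 against 1221, 1400 and 1122 CPM (adjusted p = 0.092), but was called lower in the fit on the 6 libraries with or without the replicate block (lowest adjusted p = 0.0122).

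Class II genes, which belong to professional antigen-presenting cells and not to hepatocytes, were scarce. H2-Ea-ps (ENSMUSG00000036322, chr17:34341959-34344645), the class II E alpha gene annotated as a pseudogene because the reference strain C57BL/6J carries a deletion at its start, was at 5.48, 6.33 and 0.962 CPM in NZO and at 0.0325, 0.0347 and 0 in NOD. NOD is likewise known to make no class II E molecule. Against a floor of 3 counts per library, the gene was at least 41.8-fold higher in NZO (adjusted p = 0.000984). Of 13 listed class II genes, 9 passed the filter on low counts. These 9 had a positive log2 difference, with a median of 1.64, and H2-Ea-ps was the 1 called (1 of 9 is 11.1%). H2-Ab1, the class II beta chain whose NOD allele is the main risk gene of autoimmune diabetes, was at 4.23, 3.42 and 0.609 CPM against 0.941, 1.49 and 1.78 and was not called (adjusted p = 0.439), as were H2-Aa (7.67, 6.07 and 0.994 against 0.876, 0.97 and 1.5 CPM) and H2-Eb1 (7.11, 9.74 and 1.19 against 1.30, 0.866 and 2.20). NZO replicate 3 was the low library in each of these 4 genes, and without it 5 class II genes were called higher. By DESeq2 4 were called, in the fit on the 6 libraries 4, and with the covariates 3. Of 12 genes tested among the candidates proposed for the NOD susceptibility loci, 2 were called higher (H2-Ea-ps and Hc, both in the groups above) and none lower, while 7 of the 19 listed genes were not tested because their counts were too low or they were not matched.

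Interferon-stimulated genes gave 3 calls higher and 1 lower among 36, against 4.72% higher and 5.7% lower over all genes. Their log2 differences were positive in 25, with a median of 0.29, or 0.03 with the covariates. The summed level of the group overlapped between the strains, at 357 to 530 CPM in NZO and 388 to 517 in NOD. Mx1, an antiviral GTPase, was at 4.26, 4.71 and 1.99 CPM in NZO and 0.682, 0.693 and 0.523 in NOD (log2 difference 2.52 ± 0.45, adjusted p = 0.000375). Its neighbour Mx2 on chromosome 16 was at 0.0255, 0.101 and 0.0962 CPM in NZO and 4.61, 4.64 and 2.96 in NOD (log2 difference -5.72 ± 0.48, adjusted p = 4.42e-09), with the NZO mean below the other 7 strains (2.69 to 37.1). The counts of the 2 genes were not whole in any of the 6 libraries. Ifih1, a sensor of viral RNA known as a type 1 diabetes risk gene in people, was at 29.1, 28.7 and 23.2 against 20.8, 14.9 and 17 CPM (log2 difference 0.62 ± 0.19, adjusted p = 0.0336), and Ifit3b, an antiviral effector of the Ifit family, at 4.76, 4.88 and 2.79 against 1.88, 1.91 and 1.22 (log2 difference 1.31 ± 0.38, adjusted p = 0.0263). The count of 3 fell to 1 with the covariates and without NZO replicate 1, NZO replicate 2, NOD replicate 2 or NOD replicate 3, and Ifit3b was not called without NOD replicate 1 either. Of 14 interferon-induced GTPases of the Gbp, Irg and Tgtp families, 12 had a positive difference and 1, Tgtp2, was called (10.8, 12.9 and 1.99 against 0.227, 1.04 and 0.906 CPM, adjusted p = 0.00365). Its call was lost with the covariates (adjusted p = 0.0626), while 2 GTPases were called higher in the fit on the 6 libraries or without NOD replicate 1 and 4 with the replicate block on the 6 libraries. With that block 6 interferon-stimulated genes were called higher and 3 lower.

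Of the 5 called genes of these groups whose promoter windows hold a match, 3 are shown, Ifit3b for its 3 matches and the neighbours H2-T22 and H2-T23 for their like differences. The match is to the interferon-stimulated response element core GAAANNGAA, the letters bound by the interferon-activated STAT and IRF factors. The windows come from the same RefSeq reference (GRCm38.p6), with matches on either strand in capitals, and no matches overlap one another.
Ifit3b (chr19:34607707-34608006, plus strand): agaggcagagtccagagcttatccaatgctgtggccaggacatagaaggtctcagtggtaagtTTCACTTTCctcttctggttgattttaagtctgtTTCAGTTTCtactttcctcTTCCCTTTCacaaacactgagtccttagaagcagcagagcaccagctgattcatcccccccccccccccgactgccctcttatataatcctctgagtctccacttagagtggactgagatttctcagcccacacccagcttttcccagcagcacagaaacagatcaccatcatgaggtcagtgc
H2-T22 (chr17:36042693-36042992, minus strand): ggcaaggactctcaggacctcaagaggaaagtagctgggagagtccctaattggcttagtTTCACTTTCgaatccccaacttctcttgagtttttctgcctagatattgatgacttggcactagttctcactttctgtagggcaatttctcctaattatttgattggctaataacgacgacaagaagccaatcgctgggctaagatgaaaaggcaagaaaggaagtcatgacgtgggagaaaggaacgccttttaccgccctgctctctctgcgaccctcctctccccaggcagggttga
H2-T23 (chr17:36032652-36032951, minus strand): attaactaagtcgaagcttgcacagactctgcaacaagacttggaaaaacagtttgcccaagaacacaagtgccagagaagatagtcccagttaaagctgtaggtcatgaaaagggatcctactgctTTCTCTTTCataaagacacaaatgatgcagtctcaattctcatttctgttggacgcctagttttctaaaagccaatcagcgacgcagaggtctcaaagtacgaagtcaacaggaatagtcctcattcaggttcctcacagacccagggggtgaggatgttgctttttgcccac
A match was found in 14 of the 24 interferon-stimulated genes with a window, in 9 of 9 GTPases and in 5 of 19 class I genes, against 9.76% of 27025 genes. Of the called genes with a window, 2 of 2 interferon-stimulated genes, 1 of 1 GTPases and 2 of 7 class I genes held a match. The search in the class I genes was added after their values were seen. Ifit3b holds 3 matches, and the first lies 187 bases before the start. H2-T22 and H2-T23 hold 1 match each, 190 and 123 bases before the start. The windows describe the reference strain, and the NZO and NOD sequences were not used here.

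Cytochrome P450 genes of families 1 to 3, which oxidise steroids, drugs and toxins, were called in 14 of 50 cases, 6 higher and 8 lower in NZO. They are tandem families, and counts were not whole in each of the 6 libraries for 11 of the 14 called genes. Cyp3a41a, a female-predominant steroid hydroxylase, was at 3494, 4095 and 4003 CPM in NZO and at 354, 614 and 56.7 in NOD. The NOD libraries differed widely among themselves and still lay below each NZO library and, as a mean, below the other 7 strains (978 to 7219), with a log2 difference of 3.50 ± 0.56 (adjusted p = 9.93e-05). Cyp3a41b showed the same direction, at 233, 351 and 199 against 6.00, 8.70 and 0.453 CPM (log2 difference 5.69 ± 1.03, adjusted p = 0.0004). NOD replicate 3 was the low library for both, and without NOD replicate 2 the log2 differences were 4.25 and 6.34. Cyp2a12, a hydroxylase of steroids and bile acids, was at 658, 709 and 758 against 146, 137 and 110 CPM (log2 difference 2.43 ± 0.21, adjusted p = 5.56e-09), and both strains were below the other 7 (795 to 1438). Among those lower in NZO, Cyp2c29, an epoxygenase inducible through the receptor CAR, was at 2016, 3627 and 3163 CPM against 8865, 11720 and 9249 (log2 difference -1.76 ± 0.32, adjusted p = 0.000494), and Cyp2c55 at 1.58, 6.35 and 2.25 against 23, 26.3 and 19.5 (log2 difference -2.75 ± 0.50, adjusted p = 0.000395, and -3.59 without NZO replicate 2). The number called lower was 15 by DESeq2, 20 in the fit on the 6 libraries, 3 with the covariates, 3 without NZO replicate 1, 4 without NOD replicate 1 and 3 without NOD replicate 2.

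Conjugating enzymes, which attach glutathione, sulfate or glucuronic acid for excretion, had 6 genes called higher and 13 lower among 50. The mu class glutathione transferases of chromosome 3 split. Gstm3 (ENSMUSG00000004038, chr3:107963696-107969283) was at 0.612, 1.04 and 0.609 CPM in NZO and 108, 171 and 130 in NOD (log2 difference -7.48 ± 0.61, adjusted p = 3e-09), Gstm2 at 7.21, 9.24 and 10.1 against 64.6, 108 and 76.6 (log2 difference -3.23 ± 0.42, adjusted p = 6.3e-06), and Gstm6 at 12.4, 16 and 18 against 69.7, 100 and 90.5 (log2 difference -2.49 ± 0.20, adjusted p = 2.95e-09). Counts of Gstm3 and Gstm6 were not whole in any of the 6 libraries, so reads were shared with other features. Gstm7, which lies in the same cluster (chr3:107926334-107931817) and whose counts were whole, was at 191, 206 and 232 CPM in NZO and 58.2, 73.7 and 77.0 in NOD (log2 difference 1.59 ± 0.17, adjusted p = 2.16e-07). For Gstm2, Gstm3 and Gstm6 the NOD mean was above the other 7 strains, and for Gstm7 the NZO mean was.

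Sulfotransferases showed a like division. Sult2a7, a hydroxysteroid sulfotransferase (ENSMUSG00000094156, chr7:14465051-14494230), was at 98.9, 110 and 125 CPM in NZO and 0.617, 0.139 and 0.314 in NOD (log2 difference 8.25 ± 0.52, adjusted p = 1.85e-11, and 8.91 without NOD replicate 1), and the highest mean of the other 7 strains was 19.2. Its relative Sult2a1, a bile acid and steroid sulfotransferase, was at 66.8, 112 and 80.5 against 16.2, 20.2 and 6.55 CPM (log2 difference 2.60 ± 0.57, adjusted p = 0.00293). The estrogen sulfotransferase Sult1e1 was at 5.22, 6.96 and 43.2 CPM against 0.552, 1.73 and 0.662, so NZO replicate 3 set most of the NZO mean, but the call (log2 difference 4.23 ± 0.69, adjusted p = 0.000125) was kept without it at a log2 difference of 2.63 (adjusted p = 0.00146). Without NOD replicate 2 the difference was 4.92. Sult3a1 went the other way, at 186, 178 and 195 against 877, 1014 and 809 CPM (log2 difference -2.27 ± 0.27, adjusted p = 1.4e-06). Of the conjugating genes, the count called lower was 8 without NZO replicate 1 and 7 without NOD replicate 2.

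Among the largest differences outside these groups, some had both levels within the range of the other strains and others set NZO or NOD apart from them. Serpina3c, a protease inhibitor gene (ENSMUSG00000066361, chr12:104146382-104153870), was at 0.841, 0.380 and 0.481 CPM in NZO and 276, 236 and 320 in NOD, a log2 difference of -8.91 ± 0.29 (adjusted p = 1.31e-16). The means of the other strains ran from 0.488 to 399 CPM, so both levels occur elsewhere in the series. Its counts, like those of Abhd1 below, were not whole in any of the 6 libraries. Both levels also occurred among the other strains for Corin, the protease that activates the natriuretic peptides, whose counts were whole (0.280, 0.430 and 0.193 against 28.6, 21.6 and 25.9 CPM, log2 difference -6.35 ± 0.39, adjusted p = 1.15e-11, other strains 0.291 to 54.3). Ankrd55, an ankyrin repeat gene, differed in kind, since its NOD level of 12.1, 19.1 and 12.6 CPM stood above the other strains, which reached at most 0.562, while NZO was at 0.255, 0.0759 and 0.0321 (log2 difference -6.81 ± 0.67, adjusted p = 7.09e-08, and -7.91 without NZO replicate 1). Abhd1, a gene of the alpha/beta hydrolase family, was at 2.52, 1.75 and 1.09 against 64.2, 79.0 and 60.0 CPM (log2 difference -5.23 ± 0.28, adjusted p = 1.54e-12).

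On the NZO side, B4galnt1 (ENSMUSG00000006731, chr10:127165225-127172330), which makes the complex gangliosides of the cell surface, was at 81.2, 76.0 and 86.1 CPM in NZO and 0.617, 0.693 and 0.557 in NOD, a log2 difference of 7.02 ± 0.27 (adjusted p = 1.81e-15). Each of the other 7 strains had a mean of at least 95.3 CPM, so NOD was the lowest of the 9 strains. Abcb1b, a P-glycoprotein drug exporter, was at 9.66, 10.1 and 13.4 CPM in NZO and 0.0649, 0.0347 and 0 in NOD, at least 108-fold higher against the floor of 3 counts (adjusted p = 6.4e-11), with counts that were not whole in any of the 6 libraries. Akr1c18, which inactivates progesterone, was at 45.0, 56.2 and 51.2 against 0.844, 0.485 and 0.348 CPM (log2 difference 6.48 ± 0.34, adjusted p = 6.8e-13). Sorl1, a sorting receptor also studied in insulin receptor recycling and adiposity, was at 19.6, 21.6 and 26.8 against 0.162, 0.208 and 0.383 (log2 difference 6.48 ± 0.40, adjusted p = 1.5e-11), with NOD below the other 7 (0.499 to 24.9). Pde1a, a phosphodiesterase of cyclic nucleotides, was at 11, 12 and 12.4 against 0.162, 0.104 and 0.209 CPM (log2 difference 6.18 ± 0.51, adjusted p = 3e-09), with NZO above and NOD below the others (0.312 to 2.29).

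Liver cells differ along the lobule between the portal tract and the central vein. Of 18 periportal genes, 3 were called higher and 2 lower in NZO. Hal, the first enzyme of histidine breakdown, was at 534, 522 and 423 against 216, 176 and 203 CPM (log2 difference 1.31 ± 0.20, adjusted p = 5.28e-05), while Cdh1, which encodes E-cadherin, was at 18.9, 17.3 and 13.2 against 87.7, 88.5 and 75.0 (log2 difference -2.35 ± 0.28, adjusted p = 1.52e-06), below the other 7 strains (46.2 to 86.1). Aldh1b1 and Etnppl were the others called higher, with log2 differences of 1.43 ± 0.22 and 1.62 ± 0.26. Of 15 pericentral genes, 1 was called higher (Oat, ornithine aminotransferase) and 4 lower, but the 4 became 1 without NZO replicate 1, NZO replicate 2 or NOD replicate 2 or with the covariates, and 2 without NOD replicate 1. Oat was not called without NZO replicate 3 (adjusted p = 0.0676) or NOD replicate 2 (adjusted p = 0.0657). The unfolded protein response had 1 of 26 called lower, the cell cycle 1 of 27 lower, the Nrf2 antioxidant group 1 of 22 higher, and the circadian clock 1 of 19 higher, shares near those over all genes (5.7% lower and 4.72% higher). With the covariates the unfolded protein, Nrf2 and clock counts were each 0, and 1 Nrf2 gene was called lower. The unfolded protein count also fell to 0 without NZO replicate 1, NZO replicate 3 or NOD replicate 1, the cell cycle count without NZO replicate 3 or NOD replicate 1, the Nrf2 count without any 1 library other than NOD replicate 1, and the clock count without NZO replicate 3, NOD replicate 2 or NOD replicate 3, while 7 clock genes were called higher in the fit on the 6 libraries. Of the inflammatory signals, 2 of 23 were called lower, the flagellin receptor gene Tlr5 (2.55, 2.63 and 1.31 against 8.73, 4.82 and 7.6 CPM) and the adhesion gene Vcam1 (0.561, 0.734 and 0.353 against 2.01, 1.63 and 2.61 CPM).

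Mitochondrially encoded RNA was lower in NZO. It took 3.16%, 3.04% and 3.47% of the counts in the NZO libraries and 4.90%, 6.44% and 5.48% in the NOD libraries, which do not overlap. Of the 13 protein-coding mitochondrial genes, a group added after its values were seen, 7 were called lower and none higher, with log2 differences from -1.73 to -0.52 and a median of -0.93. mt-Nd2, a subunit of respiratory complex I, was at 955, 883 and 1117 CPM in NZO and 2694, 3999 and 3093 in NOD (log2 difference -1.73 ± 0.29, adjusted p = 0.000207). The count of 7 was 11 by DESeq2, 13 in the fit on the 6 libraries, 4 with the GC trend removed and 1 with the covariates, and fell to 1 without NZO replicate 1 or NOD replicate 2, to 2 without NZO replicate 2 and to 4 without NZO replicate 3 or NOD replicate 3. The share of mitochondrial RNA moved with the strains beside the lower lipoprotein and bile acid genes, and its part in those results was not tested.

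Set beside the other 7 strains, the calls did not come from 1 strain of the pair alone. Of the 684 genes higher in NZO, the NZO mean was above the other 7 strains without the NOD mean being below them in 236, the NOD mean was below them without the NZO mean being above them in 149, both held in 39 and neither in 260. Of the 826 lower genes, the NZO mean alone met the like condition (below the others) in 315, the NOD mean alone (above them) in 139, both in 47 and neither in 325. These positions use the same libraries as the calls and are given without a test.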

How the data were processed

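Poly(A) RNA of female mouse hepatocytes was sequenced with a TruSeq kit for which no strand protocol is named, per the labels' protocols. The authors deposited 1 table of expected counts per gene (43346 genes), not scaled to depth, in which 14.7% of values were not whole because reads were divided between features. The submitters' processing notes name GRCm38/mm10, FastQC 0.11.5 and DESeq2, with no role for DESeq2. The aligner, the counter, the annotation and whether strain genomes were used are not given in the sources used here, and reads of diverged alleles could be lost.

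Counts were rounded. Genes passing filterByExpr (14482) were fitted in all 27 libraries with strain as the factor (R 4.3.3, edgeR 4.0.16 quasi-likelihood test, TMM, NZO minus NOD) and called at a Benjamini-Hochberg adjusted p under 0.05. Standard errors came from the F statistic. CPM used TMM-adjusted library sizes. Floors (3 counts) cover counting error only. Symbols came from GENCODE M21 and promoters from RefSeq. The fitting script was tested on simulated data.

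The genes and lists were chosen with earlier results of these data known. Genes were named by rule: up to 4 called genes per list and direction with at least 2 CPM in the higher strain, a set of anchor genes, and the called genes with the largest differences overall (10 per direction, at least 10 CPM) and among abundant genes (8 per direction, at least 500 CPM), passing over predicted genes, pseudogenes and Mup genes. Other list members were named after their values were seen, to account for a count. Some genes counted in the lists are not reported here. Same-numbered replicates are not paired by the labels. Alternatives were DESeq2 1.42.0, RLE scaling, other filters, the 6 libraries alone, a replicate block, unrounded counts, cell marker covariates, each library left out and, chosen after seeing the data, removal of a GC trend.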

Additional observations from a re-analysis of the deposited data

How the results depend on the processing

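The number of genes called (1510) was 1770 by DESeq2, 1501 with RLE size factors, 1515 without a filter on low counts, 1417 with a mean of at least 10 counts, 1517 with unrounded counts, 1580 with the GC trend removed and 1192 with the cell marker covariates. With the 6 libraries of the pair alone it was 2512 (1175 higher and 1337 lower in NZO). Leaving out 1 library gave 1011 to 1241 called, 468 to 560 of them higher and 526 to 681 lower. Replicate numbers did not pair the samples: deviations of same-numbered NZO and NOD libraries correlated at 0.115, -0.012 and 0.112. The replicate block gave 1387 calls in all libraries and 2500 (1169 higher and 1331 lower) in the 6 libraries.

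Group counts not given above also moved: the fit on the 6 libraries called 1 lipid droplet gene, 1 insulin signalling gene and 2 NOD candidate genes lower and 1 bile acid gene and 3 Nrf2 genes higher, and DESeq2 called 1 fatty acid oxidation gene and 4 of the 11 tested NZO candidate genes lower, or 5 with a candidate that edgeR's filter left out. The replicate block on the 6 libraries gave 16 lipoprotein, 10 acute phase, 5 growth hormone and IGF and 4 periportal genes lower and 4 Nrf2 genes higher, and on all libraries 4 complement genes lower.

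Of the 110 named genes that were called, DESeq2, the filters, unrounded counts and the block on the 6 libraries lost none, the 6 libraries alone and the GC trend 1 each, RLE size factors 2, the block on all libraries 3, the covariates 21, and leaving out 1 library 13 to 20. None of the 110 reversed. Among the named genes that were not called, the log2 difference changed sign in 10 genes. With the covariates it was 0.20 for Insr, 0.078 for Hsd11b1, 0.0296 for Fasn, -0.20 for Irs2 and 0.60 for Saa1. With 1 library left out it ran from -0.22 to 0.074 for Insr, from -0.00065 to 0.12 for Igf1, from -0.21 to 0.48 for Srebf1, from -0.0101 to 0.20 for Cpt1a, from -0.28 to 0.0287 for Fasn, from -0.042 to 0.49 for Ifi202b, from -0.12 to 0.11 for Plin2 and from -0.57 to 0.47 for Saa1. Genes near 1 count per library (0.0253 to 0.0348 CPM) are limited by depth. The causes were not tested.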
